A study of Mus musculus with 12 samples.

Results

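The BCL2 family of apoptosis regulators was followed through 9 of its genes, each taken by its exact symbol from the platform annotation and measured by its brightest row in the deposited table. They are 9 of 22180 genes with a row that names 1 gene, and all 9 were among the 15348 genes bright enough to be tested, with a log2 value above 5.29 on at least 3 arrays. They comprise the BH3-only genes Bbc3, Pmaip1, Bcl2l11, Bid and Bmf, the effector gene Bak1, and the anti-apoptotic genes Bcl2, Bcl2l1 and Mcl1. Bcl2 and Mcl1 have 2 rows each and the other 7 genes 1 row each.

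The 12 Affymetrix arrays carry RNA of LSK cells, which lack lineage markers, carry SCA1 and cKIT, and are enriched for blood stem and progenitor cells. They form 4 groups of 3 arrays: cells without Nipa (Zc3hc1; KO) given 4 Gy, untreated KO cells, wild type (WT) cells given 4 Gy, and untreated WT cells. All donors were C57BL/6-backcrossed mice older than 20 months, 3 mice were pooled for each array, and all cells spent 30 min in medium with serum, IL-3, IL-6 and SCF before treatment and were harvested 3 h later. Radiation was thus given to sorted cells in culture, and the sources used here do not give the allele of the knockout or the cells in which it acts.

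Proteins of this family decide whether the outer membrane of the mitochondrion is opened. The effectors BAK and BAX form the openings, which release cytochrome c and lead to activation of caspases; BCL2, BCL-XL (from Bcl2l1) and MCL1 hold them in check. BH3-only proteins carry the signal to die, by binding the protective members and in some cases by activating the effectors directly. In blood progenitors PUMA (from Bbc3) and NOXA (from Pmaip1) are known as targets of p53 after DNA damage, and BIM (from Bcl2l11) as a target of FOXO factors when growth factors are lost.

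The upstream sequences of the genes that changed after irradiation are shown first, because p53 and FOXO sites are the textbook route to 3 of them. RefSeq promoter sequences (GRCm38.p6) matched 8 of the 9 genes, with 15 starts; Pmaip1 is named only. In the 250 bases before the start, Bbc3 start 2 (chr7:16310011-16310260, plus strand), Bcl2l11 start 1 (chr2:128125788-128126037, plus strand) and Bcl2 (chr1:106714291-106714540, minus strand) read 5′ to 3′ as follows, with the FOXO heptamer GTAAACA, or TGTTTAC on the other strand, in capitals.
Bbc3: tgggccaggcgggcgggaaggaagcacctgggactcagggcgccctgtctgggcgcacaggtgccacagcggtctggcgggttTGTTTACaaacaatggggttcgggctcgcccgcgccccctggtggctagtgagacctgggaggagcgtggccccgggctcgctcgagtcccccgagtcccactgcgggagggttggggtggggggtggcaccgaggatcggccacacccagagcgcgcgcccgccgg
Bcl2l11: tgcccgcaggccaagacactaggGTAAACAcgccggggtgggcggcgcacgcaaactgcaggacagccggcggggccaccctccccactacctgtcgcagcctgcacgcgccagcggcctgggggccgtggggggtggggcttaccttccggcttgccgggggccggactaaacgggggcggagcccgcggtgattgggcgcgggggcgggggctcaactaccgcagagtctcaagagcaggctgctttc
Bcl2: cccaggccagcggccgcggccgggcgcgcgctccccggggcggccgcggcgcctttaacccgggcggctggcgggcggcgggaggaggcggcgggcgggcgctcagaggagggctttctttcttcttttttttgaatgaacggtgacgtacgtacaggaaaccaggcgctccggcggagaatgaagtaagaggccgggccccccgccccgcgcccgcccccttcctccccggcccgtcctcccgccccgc

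The FOXO heptamer stood in 2 of the 15 starts, those of Bbc3 and Bcl2l11 printed here, and in 3.17% of 32851 mouse promoters of the same length. The p53 half-site was searched on both strands as an exact match to RRRCWWGYYY (R is A or G, W is A or T, Y is C or T). It stood in 1 of the 15 starts, a Bmf start with GGGCTTGCCT, and in 7.13% of all promoters. None of the 3 Bbc3 starts held an exact match in this window. Stretches that depart from the pattern at any base were not counted, so the search cannot show that Bbc3 lacks a p53 site there. In the list of p53 and its death-linked targets described below, 7 of 15 starts held an exact match. A match is a run of letters and not a measured binding site.

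Depth has no counterpart on arrays, so the number of arrays limits the precision. Values are log2 expression values as deposited, whose medians lay between 5.74 and 5.85 on the 12 arrays. The knockout was visible in the data: the Zc3hc1 row lay between 5.61 and 5.82 in the 6 KO arrays and between 7.67 and 8.47 in the 6 WT arrays. The progenitor genes Kit and Cd34 were bright on all 12 arrays, at 9.97 to 11.32 and 11.53 to 12.30, while Ly6a, the gene of SCA1, has no row naming it alone. Markers of other cell types were not equally low on all arrays, and whether their RNA came from other cells or from LSK cells was not tested. The mean of 5 B cell markers was 7.78 in irradiated KO array 3 and 7.60 in untreated KO array 2, against 5.67 to 6.72 in the other 10 arrays. The mean of 6 monocyte and macrophage markers was 7.95 in irradiated KO array 1 and 7.69 in untreated KO array 1, against 6.49 to 7.16 in the other 10. These 4 KO arrays are left out below where a result rests on them. WT arrays differed as well. The mean of 7 granulocyte markers was 8.67 in irradiated and 8.84 in untreated WT array 3. It was 7.35 and 7.15 in the WT arrays numbered 1, and 7.18 to 8.33 over the KO arrays. Some marker levels moved with irradiation: the mean of 3 erythroid markers was 5.62 to 6.15 in irradiated KO and 7.2 to 7.53 in untreated KO arrays, and 5.77 to 5.97 in irradiated WT and 6.59 to 7.08 in untreated WT arrays, with Car1 called lower in both genotypes, Epor in KO cells alone and Klf1 in neither. Flt3, of the progenitor list, was called lower in both. The mean of 4 mast cell and basophil markers, none of them called, was 6.61 to 6.87 in irradiated KO and 6.15 to 6.39 in untreated KO arrays, and 5.72 to 6.58 in irradiated WT and 5.79 to 6.46 in untreated WT arrays. Their part in the differences below was not tested.

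After irradiation of KO cells, 3 of the 5 BH3-only genes rose and 1 of the 3 anti-apoptotic genes fell. Pmaip1 rose 3.70-fold, Bbc3 1.93-fold and Bcl2l11 1.34-fold, and Bcl2 fell to 0.70 of its untreated level (downward calls took in 3.2% of all genes). In irradiated WT cells Pmaip1 rose 2.88-fold and Bbc3 2.10-fold. Differences were tested with limma over all 15348 genes, and a gene was called at an adjusted p under 0.05. The call thus reached 4 of 9 members in KO cells, where 5.94% of all genes were called, and 2 of 9 in WT cells, where 4.83% were called. Upward calls alone took in 3 members against 2.74% of all genes in KO cells, and 2 members against 2.13% in WT cells, where no member was among the 2.7% called lower. The median log2 difference over the 9 members was 0.01 in KO cells and -0.03 in WT cells, against -0.02 and 0.00 over all genes tested, and members moved in both directions.

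**Figure D1:**
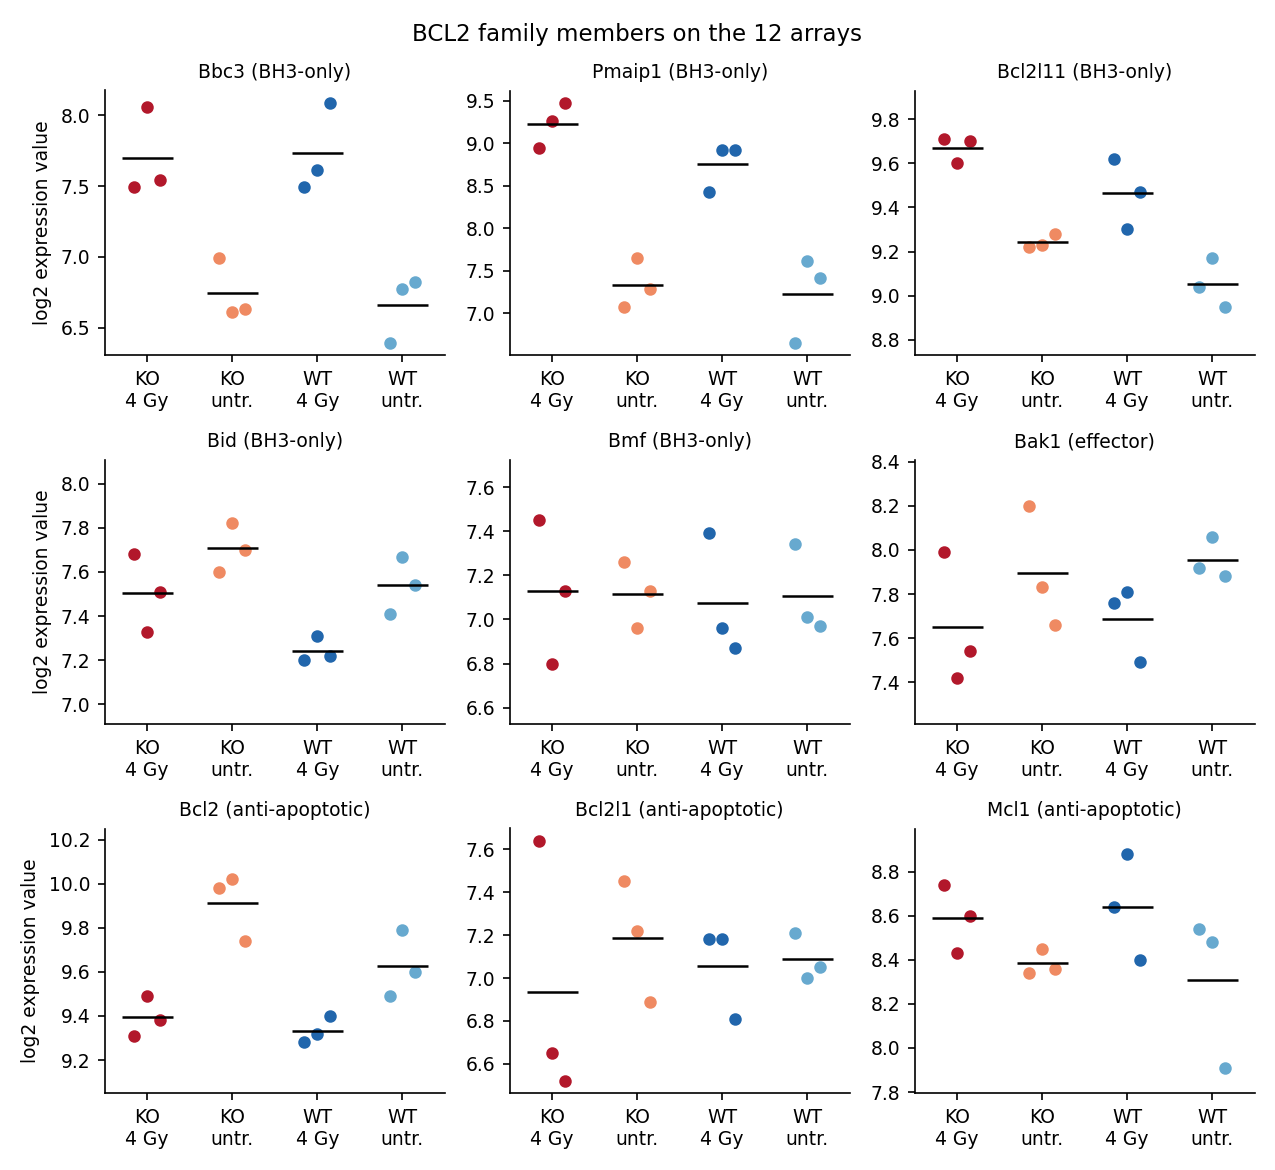
Log2 expression values of the 9 BCL2 family members, 1 panel per gene, with 1 point per array, replicates 1 to 3 from left to right within a group, and a line at the group mean (n = 3). Each panel has its own vertical scale. Irradiated arrays of either genotype lie above all untreated ones of that genotype for Bbc3, Pmaip1 and Bcl2l11, and below them for Bcl2.

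Pmaip1 encodes NOXA, a BH3-only protein that binds MCL1. Its log2 values were 8.94, 9.26 and 9.48 in irradiated KO cells and 7.07, 7.65 and 7.29 in untreated KO cells. In WT cells they were 8.43, 8.92 and 8.92 after irradiation and 6.65, 7.62 and 7.42 without it. All 6 irradiated arrays were above all 6 untreated arrays. The log2 difference was 1.89 ± 0.25 (SE, n = 3 against 3; 95% interval 1.35 to 2.43) in KO cells, with a limma adjusted p of 0.00095. It was 1.52 ± 0.25 (0.99 to 2.06) in WT cells, with an adjusted p of 0.0037. Among the 15348 genes this was the 43rd largest rise in KO cells and the 73rd largest in WT cells, and Pmaip1 passed the test in both genotypes under every alternative setting and with any 1 array left out.

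Bbc3 encodes PUMA, which binds all the protective family members. Its log2 values were 7.49, 8.06 and 7.54 in irradiated KO cells and 6.99, 6.61 and 6.63 in untreated KO cells. In WT cells they were 7.49, 7.61 and 8.09 after irradiation and 6.39, 6.77 and 6.82 without it. Irradiated and untreated arrays again did not overlap, and the highest array was replicate 2 in irradiated KO cells and replicate 3 in irradiated WT cells. The log2 difference was 0.95 ± 0.20 (SE; 95% interval 0.52 to 1.39; limma adjusted p = 0.016) in KO cells. It was 1.07 ± 0.20 (0.64 to 1.51; limma adjusted p = 0.0090) in WT cells. The KO call ended without irradiated KO array 2 (limma adjusted p = 0.066), untreated KO array 2 (0.073) or untreated KO array 3 (0.055), while the WT call passed without any 1 array.

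Bcl2l11 encodes BIM, a BH3-only protein with a large part in the death of blood cells. Its log2 values were 9.71, 9.60 and 9.70 in irradiated KO cells and 9.22, 9.23 and 9.28 in untreated KO cells. In WT cells they were 9.62, 9.30 and 9.47 after irradiation and 9.04, 9.17 and 8.95 without it. The irradiated arrays were above the untreated ones in both genotypes. The log2 difference was 0.43 ± 0.11 (SE; 95% interval 0.19 to 0.66; limma adjusted p = 0.038) in KO cells and 0.41 ± 0.11 (0.17 to 0.64; limma adjusted p = 0.053) in WT cells. Both values lie close to the threshold: the KO call ended when any of the 6 KO arrays was left out, with limma adjusted p of 0.059 to 0.126. It also ended with only the arrays compared in the fit (0.069), with array medians subtracted (0.051) or without irradiated WT array 3 (0.051). The WT value passed without irradiated WT array 2 (0.038), after cyclic loess (0.036) and with the stricter brightness filter (0.048). Averaged over genotypes, the difference of 0.42 ± 0.08 had a limma adjusted p of 0.0031.

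Bid and Bmf, the remaining BH3-only genes, were not called in either genotype. BID links death receptors to mitochondria after cleavage by caspase 8. Log2 values of Bid were 7.68, 7.33 and 7.51 in irradiated KO cells, 7.60, 7.82 and 7.70 in untreated KO cells, 7.20, 7.31 and 7.22 in irradiated WT cells and 7.41, 7.67 and 7.54 in untreated WT cells. The irradiated WT arrays were all below the untreated WT arrays, and the KO groups overlapped. Log2 differences were -0.20 (95% interval -0.45 to 0.06; limma adjusted p = 0.396) in KO cells and -0.30 (-0.55 to -0.04; limma adjusted p = 0.181) in WT cells. Bmf, a BH3-only gene linked to loss of cell attachment, lay between 6.80 and 7.45 on all arrays and the 4 groups overlapped. Its log2 differences were 0.01 (-0.39 to 0.41) in KO cells and -0.03 (-0.43 to 0.37) in WT cells.

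Bak1 encodes BAK, an effector that forms the openings. The log2 values were 7.99, 7.42 and 7.54 in irradiated KO cells, 8.20, 7.83 and 7.66 in untreated KO cells, 7.76, 7.81 and 7.49 in irradiated WT cells and 7.92, 8.06 and 7.88 in untreated WT cells. The WT groups did not overlap and the KO groups did. The log2 differences of -0.24 (95% interval -0.61 to 0.13; limma adjusted p = 0.492) in KO cells and -0.27 (-0.64 to 0.10; limma adjusted p = 0.426) in WT cells were not called. Bax, the other main effector, has no row that names it alone.

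Bcl2, the protective gene that gave the family its name, was lower after irradiation. Its log2 values were 9.31, 9.49 and 9.38 in irradiated KO cells and 9.98, 10.02 and 9.74 in untreated KO cells. In WT cells they were 9.28, 9.32 and 9.40 after irradiation and 9.49, 9.79 and 9.60 without it. Irradiated arrays were below untreated ones in both genotypes. The log2 difference was -0.52 ± 0.12 (SE; 95% interval -0.77 to -0.26; limma adjusted p = 0.021) in KO cells. In WT cells it was -0.29 ± 0.12 (-0.55 to -0.04; limma adjusted p = 0.182), which did not pass. The KO call ended without irradiated KO array 3 (limma adjusted p = 0.066), untreated KO array 1 (0.085) or untreated KO array 2 (0.10), and when averaged with the second Bcl2 row (-0.15, limma adjusted p = 0.478), which lay at 4.45 to 4.91, under the brightness limit of 5.29 on all arrays. Averaged over genotypes, the difference was -0.41 ± 0.08 (limma adjusted p = 0.0054), and this call too ended with the mean of both rows (-0.14, limma adjusted p = 0.224).

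Bcl2l1 encodes BCL-XL, a protector of platelets and red cell precursors. Arrays of irradiated KO cells had log2 values of 7.64, 6.65 and 6.52, and those of untreated KO cells 7.45, 7.22 and 6.89. In WT cells they were 7.18, 7.18 and 6.81 after irradiation and 7.21, 7.0 and 7.05 without it. Irradiated KO array 1 was about 1 log2 unit above the other irradiated KO arrays, and groups overlapped in both genotypes. The log2 difference was -0.25 (95% interval -0.79 to 0.29; limma adjusted p = 0.656) in KO cells and -0.03 (-0.57 to 0.51; limma adjusted p = 0.963) in WT cells. Without irradiated KO array 1 the KO difference was -0.60 and passed, with a limma adjusted p of 0.048. Without both KO arrays numbered 1 it was -0.47, with a limma adjusted p of 0.149.

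The 2 KO arrays numbered 1 are those with high monocyte and macrophage markers, and a further protective family gene was high in them. Bcl2a1a, which encodes A1, had log2 values of 9.45, 6.20 and 6.87 in irradiated KO cells and 8.64, 7.29 and 6.73 in untreated KO cells, against 7.57, 7.70 and 7.10 in irradiated WT cells and 7.27, 7.17 and 6.76 in untreated WT cells. Its spread within groups, a pooled SD of 1.01, was larger than that of 99.8% of the genes tested. Bcl2a1a sits among near-identical copies, and Bcl2a1b and Bcl2a1d have no row naming them alone, so its signal may be shared among them. In bulk RNA, fewer cells of a type and less RNA per cell cannot be told apart. The part of other cell types in the Bcl2l1 and Bcl2a1a values was not tested.

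**Figure D2:**
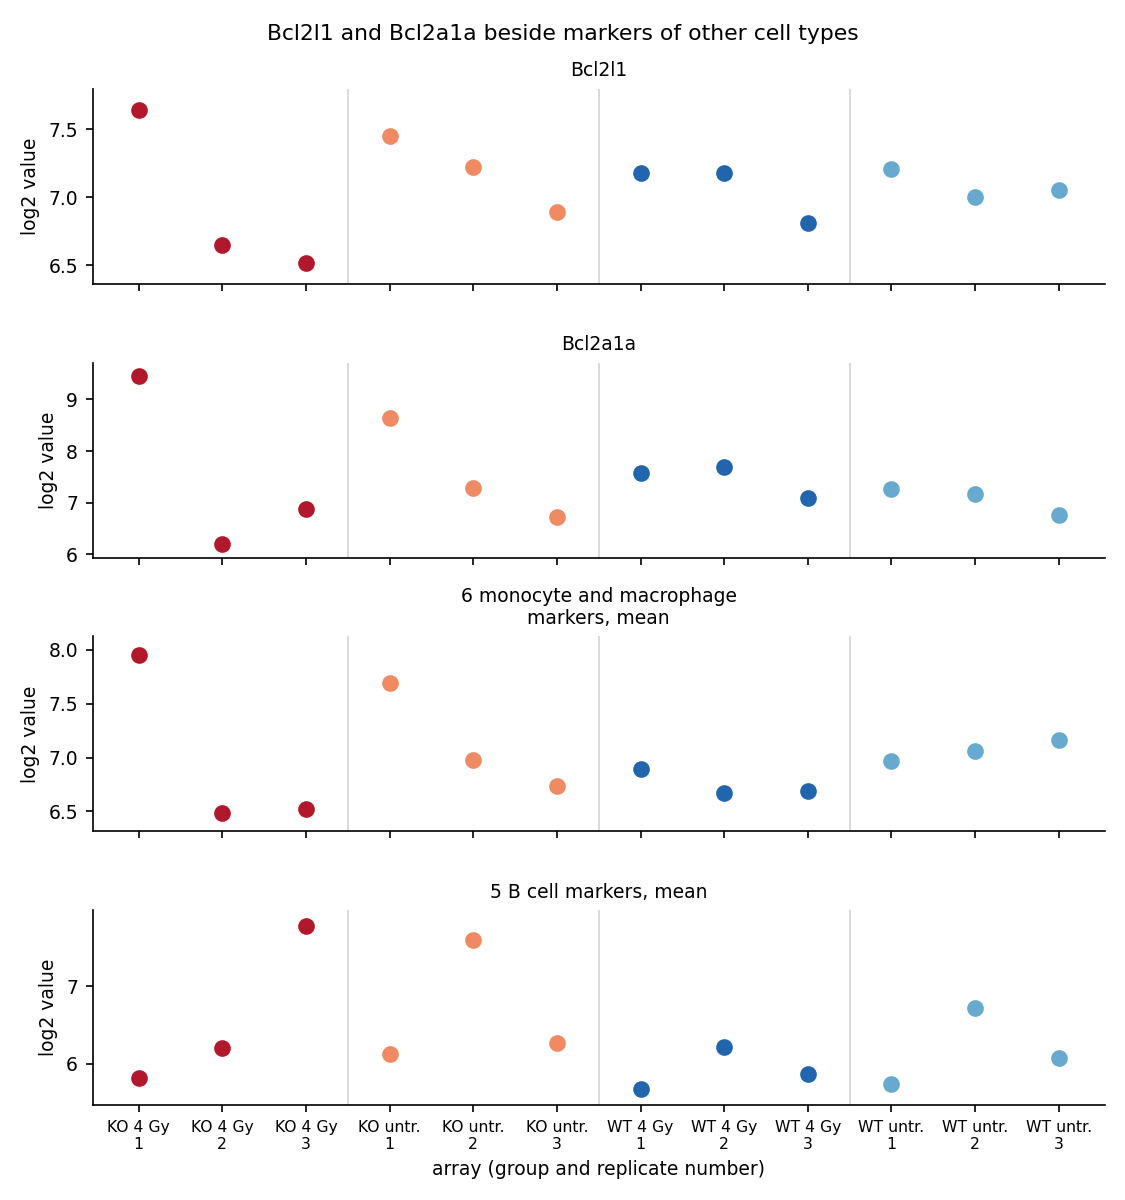
Log2 values of Bcl2l1, of Bcl2a1a and of the means of 6 monocyte and macrophage markers and 5 B cell markers on each of the 12 arrays, 1 point per array, coloured by group, with a scale of its own for each panel. KO arrays numbered 1 are highest in the first 3 panels; irradiated KO array 3 and untreated KO array 2 are highest in the panel of B cell markers.

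Mcl1 encodes a short-lived protector on which blood stem cells are known to depend. Log2 values of Mcl1 were 8.74, 8.43 and 8.60 in irradiated KO cells, 8.34, 8.45 and 8.36 in untreated KO cells, 8.64, 8.88 and 8.40 in irradiated WT cells and 8.54, 8.48 and 7.91 in untreated WT cells. Irradiated and untreated arrays overlapped in both genotypes. Log2 differences were 0.21 (95% interval -0.17 to 0.58; limma adjusted p = 0.580) in KO cells and 0.33 (-0.04 to 0.71; limma adjusted p = 0.312) in WT cells. Its second row was dimmer, at 5.54 to 6.26, though above the brightness limit on all 12 arrays. That row averaged 5.77 in irradiated KO, 5.78 in untreated KO, 5.82 in irradiated WT and 5.95 in untreated WT cells, and with the mean of both rows the Mcl1 difference was 0.10 in either genotype (limma adjusted p of 0.759 in KO and 0.720 in WT cells).

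**Figure D3:**
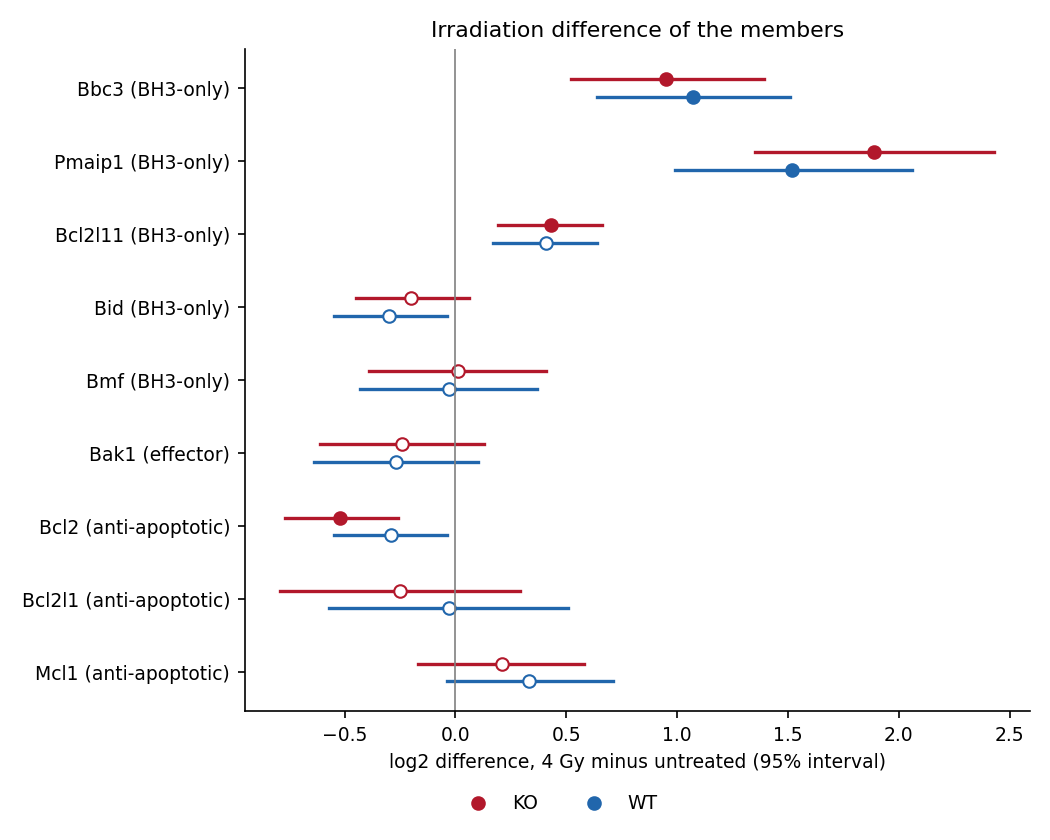
Log2 difference of 4 Gy minus untreated cells with its 95% interval for each of the 9 members, KO above WT (3 arrays against 3). Filled points passed the limma test over all genes: Bbc3, Pmaip1, Bcl2l11 and Bcl2 in KO cells, and Bbc3 and Pmaip1 in WT cells.

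The KO count of 4 members rested on few arrays. It was 2 without irradiated KO array 2, irradiated KO array 3, untreated KO array 1 or untreated KO array 3, and 1, Pmaip1, without untreated KO array 2. Without both KO arrays high in B cell markers it was also 1, and without both KO arrays numbered 1 it was 2. Groups of arrays did not overlap for 4 of 9 members in KO cells, against 23.4% of all genes, and for 6 of 9 in WT cells, against 24.8%. In WT cells those 6 were Bbc3, Pmaip1, Bcl2l11, Bid, Bak1 and Bcl2. In WT cells same-numbered arrays had correlated deviations and were taken as paired in alternative fits only. The labels do not state a pairing, and the WT values above come from the fit without one. With genotype by replicate number as a block the WT test still called 2 members, while it called 1228 genes in all against 742 without the block.

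Spread between replicates differed among the members. The pooled within-group SD was 0.10 for Bcl2l11 and 0.12 for Bid and Bcl2, under the median of 0.18 over all genes tested. It was 0.23 for Bak1 and Mcl1, 0.25 for Bmf, 0.28 for Bbc3, 0.35 for Pmaip1 and 0.36 for Bcl2l1. For a gene with a median standard error, the 95% interval of an irradiation difference reached 0.319 to either side on the log2 scale. With 3 arrays a group the smallest p of an exact permutation test is 0.1, so none was used. The labels do not say whether irradiated and untreated cells came from the same pools, so p-values measure the spread between these arrays.

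Averaged over genotypes, irradiation changed 4 of 9 members, where 16.5% of all genes were called, 6.9% higher and 9.6% lower. Pmaip1 (1.71 ± 0.18), Bbc3 (1.01 ± 0.14) and Bcl2l11 (0.42 ± 0.08) rose and Bcl2 (-0.41 ± 0.08) fell, as log2 differences ± SE. Bid, at -0.25, had a limma adjusted p of 0.061, Mcl1, at 0.27, of 0.159, and Bak1, at -0.25, of 0.179. With genotype by replicate number as a block, Bak1 passed as well (limma adjusted p = 0.045), which makes 5 members. Without irradiated KO array 1, Bid (-0.29, limma adjusted p = 0.025) and Bak1 (-0.34, 0.044) both passed, which makes 6. Bcl2l1 and Bmf, at -0.14 and -0.01, had intervals of -0.52 to 0.24 and -0.29 to 0.27.

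Between KO and WT cells no member was called at either dose. In irradiated cells limma called 0 of 9 members between KO and WT, and 0.00652% of all genes, which is Zc3hc1 alone. In untreated cells it called 0 of 9, and again 0.00652% of all genes. At an unadjusted limma p under 0.05 there was 1 member in irradiated cells, Bid, where 471 of all 15348 genes passed that cut. There was 1 in untreated cells, Bcl2, where 330 of all 15348 genes did. These comparisons share their KO and WT arrays with the irradiation comparisons, so the values are given side by side and no overlap is read from them.

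Of the members, Pmaip1 showed the largest genotype difference in irradiated cells. The 3 irradiated KO arrays, at 8.94 to 9.48, lay above the 3 irradiated WT arrays, at 8.43 to 8.92, by a gap of 0.02. The log2 difference of KO over WT was 0.47 ± 0.25 (SE; 95% interval -0.07 to 1.01; limma adjusted p = 0.999). Without irradiation it was 0.11 (-0.43 to 0.65). For Bid the irradiated KO arrays also lay above the irradiated WT arrays by 0.02, with a difference of 0.26 (0.01 to 0.52; limma adjusted p = 0.999), and the untreated difference was 0.16 (-0.09 to 0.42). These were the 2 members without overlap in irradiated cells, where the same held for 6.4% of all genes.

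Bcl2l11 was the 1 member whose untreated KO and WT arrays did not overlap, where the same held for 7.96% of all genes. Its log2 difference of KO over WT was 0.21 (95% interval -0.03 to 0.45) in irradiated cells and 0.19 (-0.05 to 0.43) in untreated cells. Averaged over doses it was 0.20 ± 0.08, with an unadjusted p of 0.022 and a limma adjusted p of 1.000. Bcl2 differed by 0.06 (-0.19 to 0.31) in irradiated cells and by 0.28 (0.03 to 0.54; limma adjusted p = 1.000) in untreated cells. For the other 5 members the genotype difference lay between -0.12 and 0.10 at either dose, and each interval included 0.

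**Figure D4:**
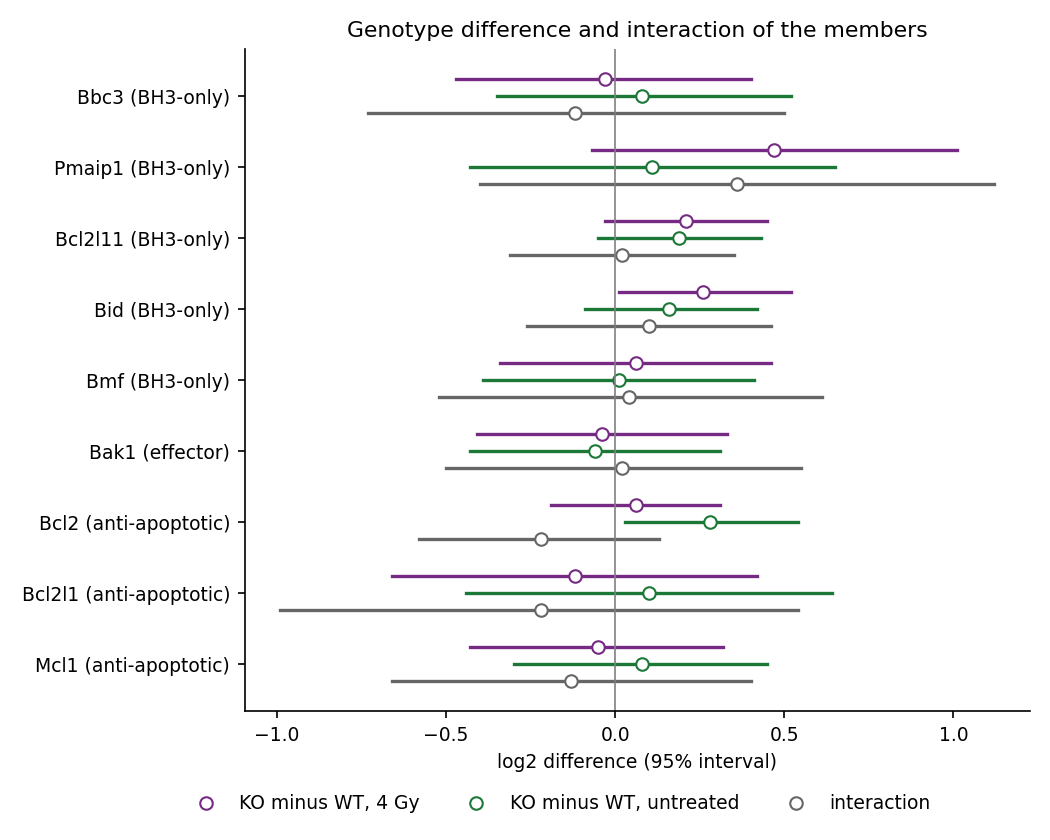
Log2 differences of KO minus WT in irradiated and in untreated cells, and the interaction (irradiation difference in KO minus that in WT), each with its 95% interval, for the 9 members. All points are open because none passed the limma test; the intervals that leave out 0 before adjustment are those of Bid in irradiated cells and Bcl2 in untreated cells.

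The irradiation responses of KO and WT cells were compared by the interaction. Limma called 0 of 9 members and 0% of all genes. No member had an unadjusted p under 0.05, where 235 of all 15348 genes did. The interaction was 0.36 on the log2 scale for Pmaip1 (95% interval -0.40 to 1.12), -0.12 for Bbc3 (-0.73 to 0.50), 0.02 for Bcl2l11 (-0.31 to 0.35) and -0.22 for Bcl2 (-0.58 to 0.13). Bcl2l11 and Bcl2 passed in KO cells and not in WT cells, and the test of that difference did not separate the genotypes. The widest interval was that of Bcl2l1, from -0.99 to 0.54. These intervals are not adjusted for the number of genes, and interactions of the sizes within them cannot be told apart with 3 arrays a group.

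Group means placed the irradiated groups on one side of the untreated groups for each of the 4 called members. Bbc3 averaged 7.70 ± 0.32 in irradiated KO, 6.74 ± 0.21 in untreated KO, 7.73 ± 0.32 in irradiated WT and 6.66 ± 0.23 in untreated WT cells (SD, n = 3 each). Pmaip1 averaged 9.23 ± 0.27, 7.34 ± 0.29, 8.76 ± 0.28 and 7.23 ± 0.51 in the same 4 groups. Bcl2l11 averaged 9.67 ± 0.06, 9.24 ± 0.03, 9.46 ± 0.16 and 9.05 ± 0.11, and Bcl2 averaged 9.40 ± 0.09, 9.91 ± 0.15, 9.33 ± 0.06 and 9.63 ± 0.15. For Pmaip1 and Bcl2l11 the order of levels was irradiated KO, irradiated WT, untreated KO and untreated WT, from the highest down. For Bbc3 irradiated WT cells came before irradiated KO cells, and for Bcl2 the order was untreated KO, untreated WT, irradiated KO and irradiated WT. Between genotypes at the same dose no neighbours in these orders differed by the limma test.

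Several genes followed the called members closely over the 12 arrays. Pearson correlations, given as a description over arrays that share the 4 groups, were highest for Bbc3 with Map7d1 (0.964), Aen (0.963) and Rnf169 (0.962). Those highest for Pmaip1 were Zfp750 (0.978), Wdr91 (0.974) and Gtse1 (0.973). For Bcl2l11 they were Vim (0.943), Ccdc186 (0.933) and Lrp1 (0.917), and for Bcl2 they were Spice1 (0.946), Kif14 (0.936) and Fbxo48 (0.931). The irradiated and untreated arrays lie apart for each of these members, which raises a correlation over all 12. Within the 6 irradiated arrays Bcl2 and Spice1 had a correlation of 0.384, and within the 6 untreated arrays one of 0.940.

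None of the further family genes that could be tested was called. Of 16 further BCL2 family genes, 11 had a row naming them alone and 7 were bright enough to test: Bok, Bad, Bik, Bcl2l2, Bcl2a1a, Bcl2l13 and Bnip3. Limma called 0 of the 7 after irradiation, where 5.94% of all genes were called in KO cells and 4.83% in WT cells. At these shares 0 of 7 does not set the list apart. An unadjusted p under 0.05 was also found for 0, against 3055 of all 15348 genes in KO cells and 3040 in WT cells. Their log2 differences ran from -0.14 to 0.18 in KO cells and from -0.15 to 0.39 in WT cells. Hrk, Bcl2l10 and Bcl2l14 stayed under the brightness limit on all arrays, and Bcl2l15 was above it on 2 arrays, under the 3 needed.

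Downstream of the mitochondrion, 20 of 22 genes of the apoptosome, the caspases and their inhibitors were tested. In KO cells 2 rose and 1 fell, where 5.94% of all genes were called, and in WT cells 1 rose and 1 fell, where 4.83% were. Apaf1, the scaffold of the apoptosome, rose by 1.05 on the log2 scale in KO cells (limma adjusted p = 0.0029) and by 1.10 in WT cells (0.0023). Birc5, the gene of survivin, which acts in cell division as well as in survival, fell by 2.01 in KO cells (limma adjusted p = 0.00047) and fell by 2.08 in WT cells (0.00037). Birc3, an inhibitor of apoptosis in the NF-kB pathway, rose by 0.46 in KO cells (limma adjusted p = 0.031) and stood 0.40 higher in WT cells (0.064). Its KO call ended with only the arrays compared (limma adjusted p = 0.076) and without any 1 of irradiated KO arrays 2 and 3 or untreated KO arrays 1, 2 and 3 (0.051 to 0.126), and its WT value passed after cyclic loess (0.043). The list's median was -0.11 in KO cells and -0.07 in WT cells.

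The list of p53 and its death-linked targets held the larger rises, though Trp53, the gene of p53 itself, has no row naming it alone. Of 15 genes tested, 11 rose in KO cells, where 2.74% of all genes were called higher, and 10 in WT cells, where 2.13% were. None fell, and the medians were 1.40 and 1.49 on the log2 scale. The list was chosen with earlier results of these data known. Phlda3, a p53 target that restrains AKT, rose by 2.78 in either genotype. The death receptors Tnfrsf10b and Fas rose by 2.90 and 2.67 in KO cells, and by 2.64 and 2.18 in WT cells. Ccng1 rose by 1.93 in KO cells and by 1.90 in WT cells. Within this scale the Pmaip1 rises of 1.89 and 1.52 lie above the list's medians, and the Bbc3 rises of 0.95 and 1.07 below them, as differences of different probe sets.

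Among 13 genes that control transcription or turnover of BCL2 proteins, 1 rose in KO cells, where 5.94% of all genes were called, and 0 were called by limma in WT cells. An unadjusted p under 0.05 was found for 3 of the 13 in WT cells and for 3040 of all 15348 genes, so neither count stands apart from the background. Jun, a subunit of AP-1, rose by 1.03 on the log2 scale in KO cells (limma adjusted p = 0.016) and stood 0.80 higher in WT cells (0.058). With only the arrays compared in the fit this turned round, with a limma adjusted p of 0.074 in KO cells and 0.016 in WT cells. The KO call also ended without irradiated KO array 2 (0.071), irradiated KO array 3 (0.064) or untreated KO array 2 (0.056), and the WT value passed without irradiated KO array 1 (0.032) or untreated KO array 2 (0.022). Foxo3, a regulator of Bcl2l11, had log2 differences of 0.38 in KO cells (limma adjusted p = 0.381) and 0.55 in WT cells (0.192). Limma called 0 genes of the 4 lists between KO and WT at either dose or in the interaction. At an unadjusted p under 0.05 there was 1, Birc6 in untreated cells. That cut took in 330 of all 15348 genes in untreated cells, 471 in irradiated cells and 235 in the interaction.

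**Figure D5:**
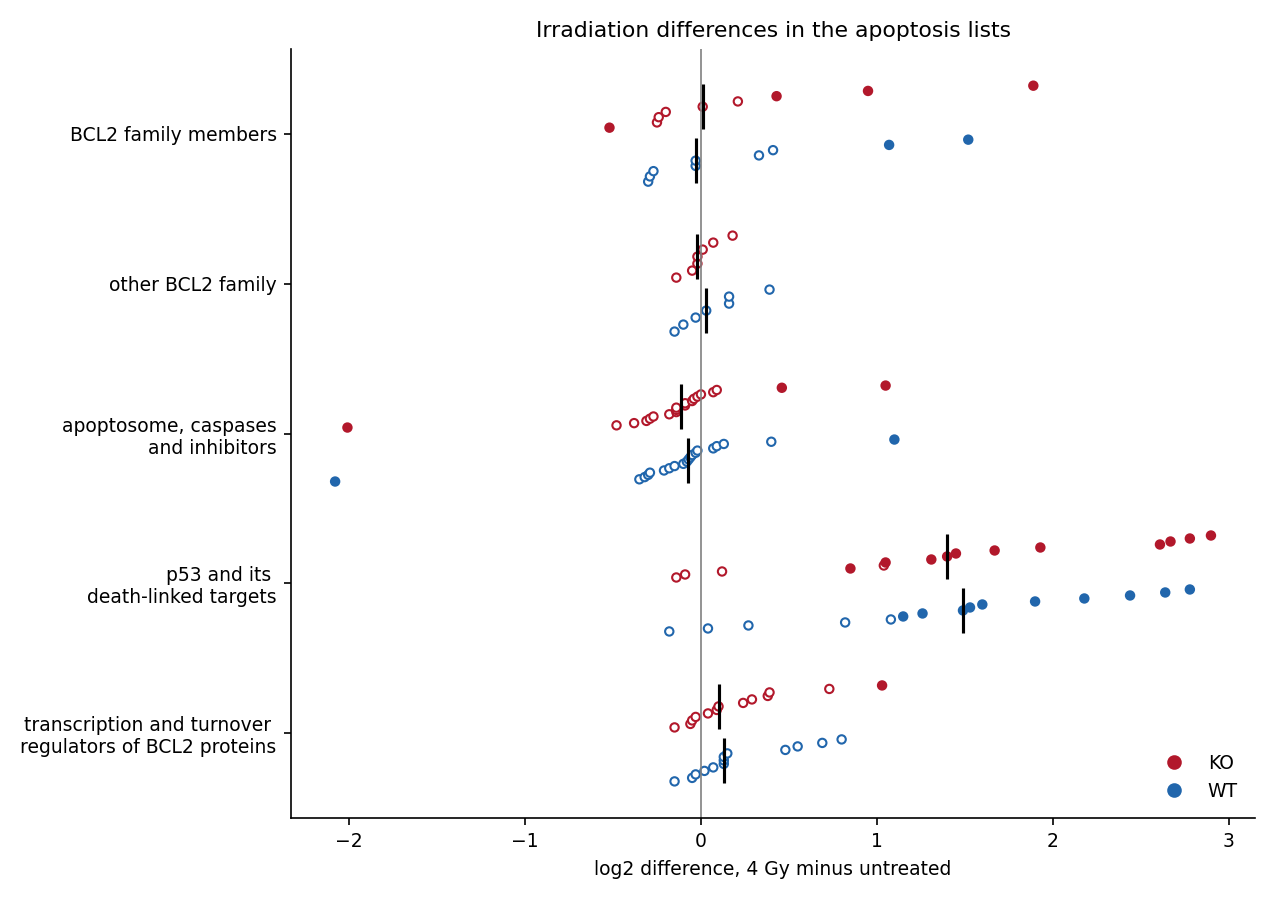
Log2 difference of 4 Gy minus untreated cells for the tested genes of each list, KO row above WT row, 1 point per gene, filled where limma called it, with a bar at the list's median. Most filled points to the right belong to p53 and its death-linked targets, and the point near -2 is Birc5.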

How the data were processed

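Per the labels' protocols, RNA of sorted LSK cells was extracted with a column kit and hybridised as biotin-labelled cDNA made with the Affymetrix WT Pico kit. The deposited table holds log2 values for each probe set on each array. Oligo and RMA are named in the submitters' processing notes; RMA corrects background, normalizes by quantiles and summarises probes. The sources used here give neither versions nor the build of the annotation.

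Of 41345 probe sets, 23521 name 1 gene, 1814 name several and 16010 name none; the brightest row of each gene was used. Genes above 5.29, the 40th percentile of the table, in at least 3 arrays were tested: 15348 genes, with 6832 left out. Differences came from a single limma 3.58.1 fit (R 4.3.3) of the 4 group means, two-sided, with Benjamini-Hochberg adjustment over all genes tested and a threshold of 0.05; the procedure was tested on simulated data. Motifs were searched with Python 3.11.15. Groups and replicate numbers come from the sample titles. The members, lists, motifs and tests were chosen with earlier results of these data known. Named genes are the members, up to 3 called genes of each list with the smallest p in each irradiation comparison among those whose groups do not overlap, and the 3 nearest patterns of each called member; Foxo3, Bcl2a1a and the other untested or uncalled genes of the family were named after their values were seen.

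Whether replicate numbers pair arrays was read from the correlation of same-numbered deviations from group means. For irradiated and untreated WT arrays it was 0.491, 0.476 and 0.420, so these were taken as paired, though in alternative fits only. For untreated KO and WT arrays it was 0.161, 0.233 and 0.102. Arrays of unlike number reached 0.136 there, so these values do not show a pairing. For irradiated and untreated KO arrays the same-numbered values were 0.474, -0.239 and -0.122, and for irradiated KO and WT arrays 0.341, -0.289 and 0.284. Alternatives were a replicate block, leaving out arrays, the arrays compared only, other brightness filters, other scalings, the mean over rows and a trended robust prior.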

Additional observations from a re-analysis of the deposited data

How the results depend on the processing

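Of the counts of members called, only the one for irradiation in KO cells moved by over 1.5 times from its value of 4. It was 2 when only the arrays compared entered the fit, 1 to 4 when single arrays were left out, and, in settings chosen after seeing the data, 2 without the KO arrays numbered 1 and 1 without irradiated KO array 3 and untreated KO array 2. The WT count of 2 was 2 to 3, the count of the average irradiation difference 3 to 6, and the genotype and interaction counts were 0 throughout. Over all genes, 911 calls in KO cells became 392 to 1573 without single arrays, 557 with only the arrays compared and 1390 with the replicate block within genotype; without irradiated KO array 3 and untreated KO array 2 there were 283. The 742 calls in WT cells became 314 to 1040 without single arrays and 1228 with that replicate block, and 2532 average calls became 1403 without those 2 arrays. With the replicate block over all arrays the WT count was 2 and the untreated genotype count 0; with the block within genotype the KO count was 3, as Bcl2l11 had a limma adjusted p of 0.059, and the average irradiation count was 5, as Bak1 passed. The KO numbers did not pair arrays: irradiated KO array 2 correlated best with untreated KO array 3 (0.517) and irradiated KO array 3 with untreated KO array 2 (0.438), the 2 arrays high in B cell markers, so a block by number is of little use for the KO count. The block changed no other call of a member. Without irradiated KO array 1 the KO difference of Bcl2l1 was -0.60 (limma adjusted p = 0.048). Averaging rows brought the Bcl2 difference in KO cells to -0.15, because the dim second row enters the mean. That row, under the brightness limit on all arrays, went the other way, averaging 4.82 in irradiated and 4.61 in untreated KO cells. The cause of the other changes was not tested.

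Of 1618 recomputed single-gene values, 72 changed sign, and none of these passed the test in either fit. Ranges without single arrays, as log2 differences, follow. For irradiation they were -0.15 to 0.18 (KO), -0.19 to 0.09 (WT) and -0.09 to 0.07 (average) for Bmf, and -0.09 to 0.09 (WT) for Bcl2l1. For KO over WT in irradiated cells they were -0.22 to 0.15 for Bbc3, -0.10 to 0.22 for Bmf, -0.21 to 0.08 for Bak1, -0.47 to 0.09 for Bcl2l1 and -0.17 to 0.07 for Mcl1. For KO over WT in untreated cells they were -0.05 to 0.16 for Bbc3, -0.18 to 0.30 for Pmaip1, -0.06 to 0.13 for Bmf, -0.21 to 0.06 for Bak1, -0.03 to 0.25 for Bcl2l1 and -0.12 to 0.19 for Mcl1. For the interaction they were -0.30 to 0.06 for Bbc3, -0.06 to 0.10 for Bcl2l11, -0.12 to 0.21 for Bmf, -0.15 to 0.18 for Bak1 and -0.25 to 0.07 for Mcl1. Without the KO arrays numbered 1, the values that changed sign were, in irradiated cells, 0.07 for Bbc3 and -0.10 for Bmf, in untreated cells -0.04 for Bbc3, -0.06 for Bmf and -0.03 for Bcl2l1, for the interaction 0.11 for Bbc3, -0.01 for Bcl2l11, -0.04 for Bid and -0.04 for Bmf, and -0.07 for irradiation of Bmf in KO cells. Without irradiated KO array 3 and untreated KO array 2 they were, in irradiated cells, 0.04 for Bbc3, 0.02 for Bak1 and 0.09 for Bcl2l1, in untreated cells -0.05 for Pmaip1, for the interaction -0.00 for Bcl2l11, -0.04 for Bmf and 0.00 for Bcl2l1, and -0.07 for irradiation of Bmf in KO cells. Subtracting array medians gave Bmf -0.01 in untreated cells, cyclic loess gave its average irradiation difference as 0.03, and the mean over rows gave Mcl1 -0.04 in untreated cells. With 3 arrays a group, the median 95% interval of a difference between 2 groups reached 0.319 to either side before adjustment. Larger differences could also miss the call: Bcl2l11 stood 0.41 higher in irradiated WT cells, with a limma adjusted p of 0.053.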
